A study of Mus musculus with 16 samples.

Results

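De novo lipogenesis turns acetyl units from sugar into fatty acids, and the genes described here are its enzymes in mouse liver, its transcription factors and a lipase that those factors switch on. They are Srebf1, Mlxipl, Acly, Acaca, Acacb, Fasn, Scd1, Elovl6, Me1 and Pnpla3. They were chosen by name as the rows of a table of read counts, and all 10 were found once among 48051 rows with a gene symbol. Libraries were polyA RNA from livers of C57BL/6J mice, in 4 groups of 4. Wild type (WT) and hepatic TSC1 KO mice (KO, also called the knockout) were each sampled on control diet and under the Gao-binge alcohol regimen, in which an alcohol diet is followed by an alcohol gavage, with a time of 10 days given for all groups. The sources used here do not give the Cre line or promoter behind the deletion, nor the age of the mice. Whether each library is a mouse of its own is not given either, so p-values reflect spread among the libraries, part of which may be technical.

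In this pathway ATP citrate lyase cleaves cytosolic citrate to acetyl-CoA, acetyl-CoA carboxylase makes malonyl-CoA, and fatty acid synthase joins these units into palmitate with reducing power from NADPH. Elongation and desaturation then turn palmitate into longer and monounsaturated fatty acids. Insulin, partly through the kinase complex mTORC1 that the TSC1 protein restrains, acts on the factor SREBP-1 (gene Srebf1), while sugar metabolites act on ChREBP (gene Mlxipl).

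Srebf1 and Mlxipl were the members that fell with ethanol in both genotypes, so the sequence upstream of their starts is shown, with that of Me1 and Elovl6, which were lower in the knockout on control diet, and of Fasn, a classical target of both factors. Sequences are from RefSeq on build GRCm38.p6, read on the strand of the gene. The Srebf1 stretch is chr11:60210472-60210721 (minus strand, the most downstream of its 3 starts). For Mlxipl it is chr5:135089640-135089889 (plus) and for Me1 chr9:86695954-86696164 (minus), each at the most upstream of several starts. The others are chr3:129532136-129532354 for Elovl6 (plus) and chr11:120824548-120824797 for Fasn (minus). Bases that an annotated exon covers were left out of the Me1 and Elovl6 stretches. Capitals mark CCAAT and GGGCGG, or CACGTG, on either strand, so that ATTGG and CCGCCC are the first and second read in reverse.
Srebf1: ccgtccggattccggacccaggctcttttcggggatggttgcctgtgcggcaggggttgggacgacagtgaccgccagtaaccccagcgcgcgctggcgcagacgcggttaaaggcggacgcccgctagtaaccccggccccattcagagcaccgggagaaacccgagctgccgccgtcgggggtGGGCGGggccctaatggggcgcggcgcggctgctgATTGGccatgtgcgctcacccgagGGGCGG
Mlxipl: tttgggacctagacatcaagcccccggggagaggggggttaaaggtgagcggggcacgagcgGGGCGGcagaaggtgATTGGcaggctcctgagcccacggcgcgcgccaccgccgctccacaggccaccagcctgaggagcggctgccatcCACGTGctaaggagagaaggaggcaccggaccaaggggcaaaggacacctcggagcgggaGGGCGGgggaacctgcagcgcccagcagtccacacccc
Me1: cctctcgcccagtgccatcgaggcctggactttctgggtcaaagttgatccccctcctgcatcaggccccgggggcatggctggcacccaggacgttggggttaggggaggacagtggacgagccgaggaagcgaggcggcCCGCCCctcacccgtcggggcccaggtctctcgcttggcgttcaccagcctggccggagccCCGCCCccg
Elovl6: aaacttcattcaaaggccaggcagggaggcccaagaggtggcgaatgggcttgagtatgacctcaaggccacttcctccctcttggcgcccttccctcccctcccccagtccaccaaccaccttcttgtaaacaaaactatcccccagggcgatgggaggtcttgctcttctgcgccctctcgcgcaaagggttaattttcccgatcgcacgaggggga
Fasn: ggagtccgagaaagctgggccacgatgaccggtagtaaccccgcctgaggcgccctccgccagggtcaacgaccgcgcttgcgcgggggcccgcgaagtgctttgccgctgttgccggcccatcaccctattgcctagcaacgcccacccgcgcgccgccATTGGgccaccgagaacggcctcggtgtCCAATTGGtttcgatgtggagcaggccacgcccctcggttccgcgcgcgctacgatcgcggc
The CCAAT box is bound by NF-Y, the GC box by Sp1 and the E-box CACGTG by basic helix-loop-helix factors. The Fasn stretch held CCAAT 3 times, and there 2 matches on opposite strands overlap in CCAATTGG. Over all annotated windows of 250 bases (32851 windows), 33.8% held CCAAT, 32.7% GGGCGG and 6.02% CACGTG. Of 13 windows of 9 members, 7, 6 and 1 held them, and Scd1 had no window. The sterol element written as TCACNCCAC was in 1.05% of windows and in 1 member window, at the downstream start of Mlxipl, and the form TCACNTGA was in 3.45% and in 0 member windows. These matches describe letters in the windows only.

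The knockout on control diet was called to have less Me1, Elovl6, Acaca and Pnpla3 RNA and more Acacb RNA than wild type. Of these calls only that of Me1 held under all 23 alternative ways of processing. After ethanol Me1 and Pnpla3 were the members still called lower in the knockout. Ethanol itself lowered Srebf1 and Mlxipl in both genotypes, and no other member was called. Calls are at a Benjamini-Hochberg adjusted p under 0.05 over 14346 genes in edgeR's quasi-likelihood test. On control diet 1 member was called higher and 4 lower in the knockout, against a background of 12.3% of all genes called, 7.4% higher and 4.91% lower. After ethanol 0 were higher and 2 lower (background 38.7%, being 19.6% higher and 19.1% lower), where edgeR gave 1 higher at an unadjusted p under 0.05 and DESeq2 and voom called 0. With ethanol, 0 rose and 2 fell in wild type (background 33.5%, being 17.6% and 15.9%) and 0 rose and 2 fell in the knockout (14.1%, being 7.0% and 7.11%). In both of these edgeR gave 0 rises at an unadjusted p under 0.05, and DESeq2 and voom called 0. The median member log2 fold change was -0.83, -0.16, -0.67 and 0.18 in those comparisons, against medians over all genes of 0.01, -0.01, -0.01 and 0.00. Comparisons that share a group are not independent of each other. Upper quartile scaling moved the share of higher calls over all genes from 50.6% to 61.8% between genotypes after ethanol and from 52.5% to 41.8% with ethanol in wild type.

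**Figure D1:**
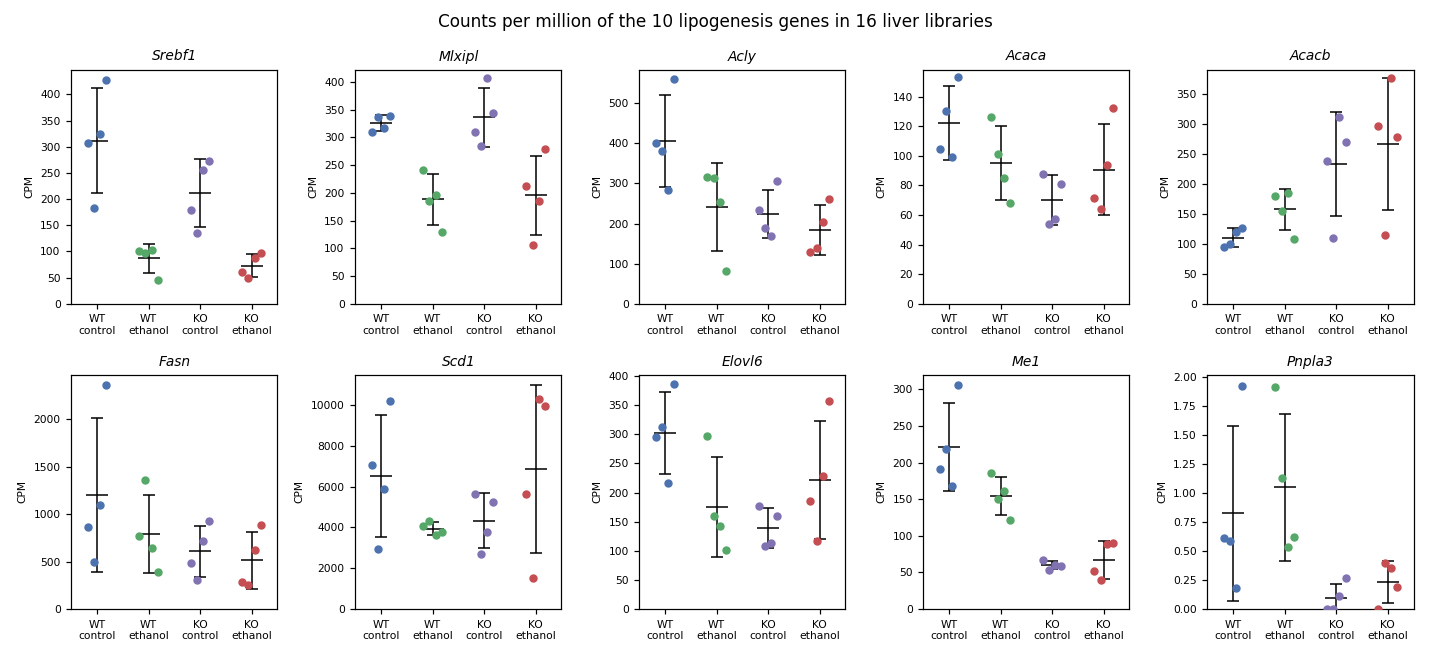
CPM, the read counts scaled by each library's adjusted total (vertical axes from 0), of the 10 genes by group. Points are the 4 libraries of a group in the order of their numbers, and bars show the mean and SD. Srebf1 and Mlxipl lie lower after ethanol in both genotypes, and Me1 lies lower in the knockout on both diets.

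Levels were set side by side per length, as CPM per kb of annotated exon averaged over 16 libraries. The length joins all annotated exons of a gene and not the transcripts present, so levels of different genes compare only roughly. Scd1 stood at 1107, Fasn at 71.1, Acly at 49.9 and Mlxipl at 47.2. Me1 (32.7), Elovl6 (32.6) and Srebf1 (30.3) followed, then Acacb (19.9), Acaca (5.53) and Pnpla3 (0.356). Scd1 alone took 0.642% of all counts in wild-type controls, where it ranked 14 among genes.

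Srebf1 (chromosome 11, 60199089 to 60222581 on the minus strand of GRCm38) encodes SREBP-1, a membrane-bound factor that must be cleaved before it enters the nucleus. In wild type on control diet the 4 libraries stood at 308, 184, 325 and 428 CPM, and after ethanol at 101, 97.6, 103 and 46.0 CPM. Every control library lay above every ethanol library. In the knockout the values were 179, 135, 256 and 274 CPM on control diet and 59.8, 49.3, 86.9 and 96.4 CPM after ethanol, again with no overlap. The fall with ethanol was -1.84 ± 0.32 log2 in wild type (SE, adjusted p = 0.000547), which is 3.58-fold, and -1.53 ± 0.32 log2 in the knockout (adjusted p = 0.00626), which is 2.89-fold. Both calls held under all 23 alternatives, each left-out library included. In bulk liver, fewer cells of a type and less RNA per cell cannot be told apart. The difference between the 2 ethanol effects was 0.31 ± 0.44 log2 (adjusted p = 0.744). Between genotypes the values were -0.56 ± 0.31 log2 on control diet (adjusted p = 0.275), which voom called (-0.78, adjusted p = 0.0342), and -0.25 ± 0.31 after ethanol (adjusted p = 0.559). Exons of Srebf1 overlap those of Rai1 on the other strand and of Mir6922 on the same strand.

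Mlxipl (chromosome 5, 135089890 to 135138382, plus strand) encodes ChREBP, which pairs with Mlx on the promoters of glycolytic and lipogenic genes. The wild-type controls were close together at 311, 337, 318 and 339 CPM, and the ethanol libraries at 241, 186, 197 and 129 CPM lay below them all. The knockout stood at 309, 284, 407 and 343 CPM on control diet and 213, 106, 185 and 279 CPM after ethanol. Those groups did not overlap either, though the highest ethanol library came near the lowest control. The fall was -0.79 ± 0.23 log2 in wild type (SE, adjusted p = 0.0137) and -0.78 ± 0.23 in the knockout (adjusted p = 0.0322), and the difference between them was 0.01 ± 0.32 (adjusted p = 0.989). The wild-type call was lost without WT ethanol library 4 (-0.65). The knockout call was lost without KO control library 1 (-0.82), 3 (-0.67) or 4 (-0.77) or KO ethanol library 2 (-0.57) or 3 (-0.74), with no filter on low counts (adjusted p = 0.0903) and with those groups alone (adjusted p = 0.0777). Genotypes differed by 0.04 ± 0.23 log2 on control diet (adjusted p = 0.931) and 0.06 ± 0.23 after ethanol (adjusted p = 0.866), and the sign of both values changed with the libraries used.

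Acly encodes ATP citrate lyase, the step that supplies cytosolic acetyl-CoA. Its mean level was 406 ± 115 CPM in wild-type controls (SD, n = 4), 241 ± 110 in wild type after ethanol, 224 ± 60.7 in knockout controls and 184 ± 62.1 in the knockout after ethanol. The groups overlapped in every comparison and none was called. The genotype difference on control diet was -0.86 ± 0.36 log2 (SE, adjusted p = 0.142), and it was called without WT ethanol library 4 (-0.86, adjusted p = 0.0358), by voom (adjusted p = 0.0277) and with those groups alone (adjusted p = 0.0308). That library held 81.7 CPM of Acly, against 254 to 315 CPM in the others of its group.

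The carboxylases moved in opposite directions with genotype on control diet. Acaca encodes the cytosolic acetyl-CoA carboxylase whose malonyl-CoA feeds synthesis, and Acacb the form at the mitochondrial surface whose malonyl-CoA restrains fatty acid import for oxidation. Acaca stood at 105, 131, 99.3 and 153 CPM in wild-type controls and at 87.9, 54.0, 57.0 and 81.1 CPM in knockout controls. These groups did not overlap, and the difference was -0.80 ± 0.24 log2 (SE, adjusted p = 0.0427). Acacb stood at 94.4, 99.3, 120.2 and 127 CPM in wild-type controls and at 239, 110.1, 312 and 269 CPM in knockout controls. Knockout library 2 lay within the wild-type range and the others above it, and the difference was 1.08 ± 0.33 log2 (adjusted p = 0.0456).

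Both of these calls lay near the threshold. The Acaca call was lost with no filter (adjusted p = 0.136), without WT control library 1 (-0.86), 2 (-0.77) or 4 (-0.67), WT ethanol library 2 or 3 (-0.80 each), KO control library 2 (-0.69), 3 (-0.71) or 4 (-0.88), or KO ethanol library 3 (-0.80). The Acacb call was lost with no filter (adjusted p = 0.143), without WT control library 1 (1.01), 2 (1.03), 3 (1.12) or 4 (1.16), WT ethanol library 1, 2 or 3 (1.08 each), KO control library 1 (1.06), 3 (0.90) or 4 (1.00), or KO ethanol library 1 or 4 (1.08 each). After ethanol Acaca differed by -0.07 ± 0.24 log2 between genotypes (adjusted p = 0.841), a value that changed sign under upper quartile scaling (0.00). Acacb then stood at 157 ± 34.9 CPM (SD, n = 4) in wild type and 266 ± 109.7 in the knockout, a difference of 0.76 ± 0.33 log2 (adjusted p = 0.0795). Without KO ethanol library 2 it was called (1.01, adjusted p = 0.0106), and also without KO control library 2 (0.76, adjusted p = 0.0392). With ethanol in wild type Acacb was called with those groups alone (0.51, adjusted p = 0.041).

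Within each library the ratio of Acacb to Acaca, per kb of exon, put these genes on one scale. The lengths join all annotated exons of a gene, 9632 bp for Acacb and 17074 bp for Acaca, and not the transcripts present. The height of the ratio depends on them. In CPM the wild-type control means were 110.2 for Acacb and 121.9 for Acaca. The ratio was chosen after the values were seen and is given without a test. It ran from 1.35 to 2.15 in wild-type controls, from 2.52 to 3.87 in wild type after ethanol, from 3.62 to 9.69 in knockout controls and from 3.15 to 7.35 in the knockout after ethanol. Neither knockout group overlapped the wild-type controls, and wild type after ethanol did not overlap them either. Both knockout groups overlapped wild type after ethanol.

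**Figure D2:**
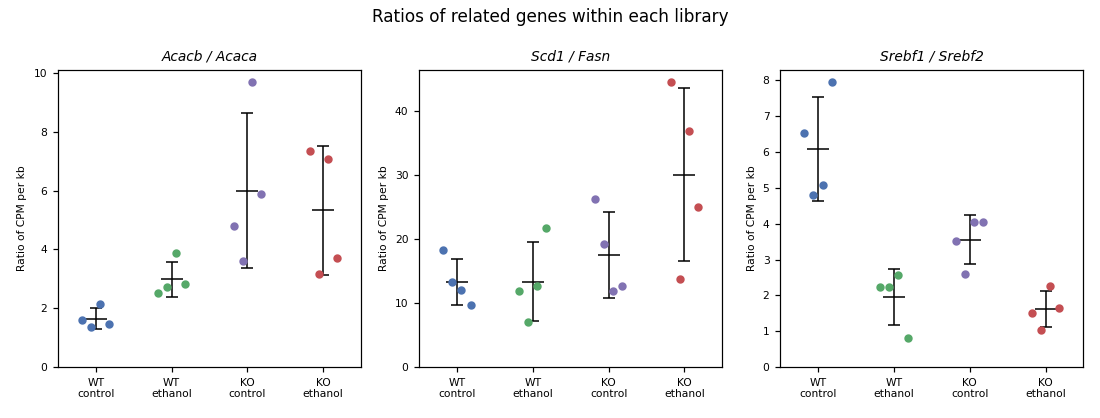
Ratios of CPM per kb of exon within each library (vertical axes from 0), by group, for Acacb over Acaca, Scd1 over Fasn and Srebf1 over Srebf2. Points are libraries and bars show the mean and SD of 4. The Acacb to Acaca ratio lies between 3.62 and 9.69 in knockout controls and between 1.35 and 2.15 in wild-type controls. In wild type after ethanol it lies between 2.52 and 3.87, also above the wild-type controls.

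Fasn, fatty acid synthase, and Scd1, the desaturase that makes oleate and palmitoleate, were called in no comparison, and their libraries spread widely in most groups. Fasn stood at 862, 499.8, 1093 and 2360.0 CPM in wild-type controls, so the highest library was 4.72 times the lowest. Its other groups were at 790 ± 414 CPM (SD, n = 4) in wild type after ethanol, 609 ± 269 in knockout controls and 512 ± 304 in the knockout after ethanol. The genotype difference on control diet was -0.98 ± 0.54 log2 (SE, adjusted p = 0.269), which voom called (adjusted p = 0.0355). Without WT control library 4 it was -0.42 (adjusted p = 0.682). Scd1 was even in wild type after ethanol, at 4050.0, 4313, 3622 and 3786 CPM, and spread in the knockout after ethanol, at 5634, 1540.0, 10310.0 and 9959 CPM. The knockout libraries lay on both sides of the wild-type range, with library 2 below it. The difference was 0.80 ± 0.46 log2 (adjusted p = 0.183), or 1.13 without KO ethanol library 2, where it was called (adjusted p = 0.0194). On control diet Scd1 stood at 6517 ± 2995 CPM in wild type and 4336 ± 1369 in the knockout (-0.59 ± 0.46 log2, adjusted p = 0.454). The Scd1 to Fasn ratio per kb, also chosen after its values were seen, was 13.3 ± 3.66 in wild-type controls, 13.3 ± 6.15 in wild type after ethanol, 17.5 ± 6.72 in knockout controls and 30.1 ± 13.5 in the knockout after ethanol, and these groups overlapped.

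Elovl6, the elongase that extends palmitate to stearate, stood at 295, 313, 216 and 387 CPM in wild-type controls and at 177, 108, 113 and 159.6 CPM in knockout controls. The groups did not overlap, and the difference was -1.12 ± 0.35 log2 (SE, adjusted p = 0.0473). This call was lost with no filter (adjusted p = 0.15), without WT control library 1 (-1.13), 2 (-1.10), 3 (-1.25) or 4 (-0.98), WT ethanol library 2 or 3 (-1.12 each), KO control library 1 (-1.26), 2 (-1.02), 3 (-1.03) or 4 (-1.19), or KO ethanol library 1 or 3 (-1.12 each). After ethanol the libraries were at 298, 159.8, 143 and 101 CPM in wild type and 185, 116, 229 and 357 CPM in the knockout, which overlapped. Ethanol gave -0.79 ± 0.34 log2 in wild type (adjusted p = 0.0902) and 0.67 ± 0.34 in the knockout (adjusted p = 0.209). The wild-type value was called without WT ethanol library 1 (-1.17, adjusted p = 0.0146) and by voom (adjusted p = 0.0404). The difference between the ethanol effects was 1.46 ± 0.49 log2 (adjusted p = 0.125), and DESeq2 (1.47, adjusted p = 0.0376) and voom (1.57, adjusted p = 0.046) called it. Elovl6 exons overlap Gm35986 on the other strand.

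Me1 had the firmest genotype difference among the members. It encodes cytosolic malic enzyme, which turns malate to pyruvate and yields NADPH for fatty acid synthesis. On control diet the libraries stood at 192, 218, 168 and 307 CPM in wild type and 67.4, 53.9, 60.1 and 58.6 CPM in the knockout. After ethanol they stood at 185, 149.8, 161 and 122 CPM in wild type and 51.5, 39.0, 88.3 and 90.4 CPM in the knockout. All 8 knockout libraries lay below all 8 wild-type libraries. Without ethanol the difference reached -1.88 ± 0.25 log2 (SE, adjusted p = 0.000169), or 3.69-fold lower, and -1.20 ± 0.24 after ethanol (adjusted p = 0.00136), or 2.30-fold lower, and both held under all 23 alternatives. Ethanol gave -0.52 ± 0.24 log2 in wild type (adjusted p = 0.105), called without KO ethanol library 2 (-0.52, adjusted p = 0.0477), and 0.17 ± 0.24 in the knockout (adjusted p = 0.685). Me1 exons overlap A330041J22Rik on the other strand.

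Pnpla3, a lipid-droplet lipase and acyltransferase that both SREBP-1 and ChREBP switch on, was near the limit of detection. Summed over 4 libraries the wild type had 58 counts on control diet and 75 with ethanol, and the knockout had 7 and 16. By library the wild type stood at 0.613, 0.586, 0.184 and 1.92 CPM on control diet and 1.91, 1.13, 0.535 and 0.62 CPM after ethanol. The knockout stood at 0, 0, 0.108 and 0.266 CPM on control diet and 0, 0.397, 0.357 and 0.187 CPM after ethanol. The genotypes overlapped on control diet and not after ethanol. Scaled for depth, wild type had 8.46 times the counts of the knockout on control diet (95% exact interval 3.85 to 22.0) and 4.50 times after ethanol (2.60 to 8.27), intervals that cover counting error only. The fitted differences were -3.00 ± 0.90 log2 (SE, adjusted p = 0.04) and -2.12 ± 0.77 (adjusted p = 0.04). The first was lost with no filter (adjusted p = 0.0771), without WT control library 1 (-3.12) or 4 (-2.19), WT ethanol library 2 (-3.00), or KO control library 1 (-2.62), 2 (-2.63) or 3 (-3.05). It stayed called without KO control library 4, at -4.21. The second was lost with no filter (adjusted p = 0.0814), by voom (adjusted p = 0.0811), without WT ethanol library 1 (-1.64) or 2 (-2.08), or KO ethanol library 1 (-1.72), 3 (-2.37) or 4 (-2.02). Pnpla3 shares exons with Gm49513 on the same strand. The paralog Pnpla5 had 14, 17, 0 and 0 counts in the same groups and was too low to test.

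**Figure D3:**
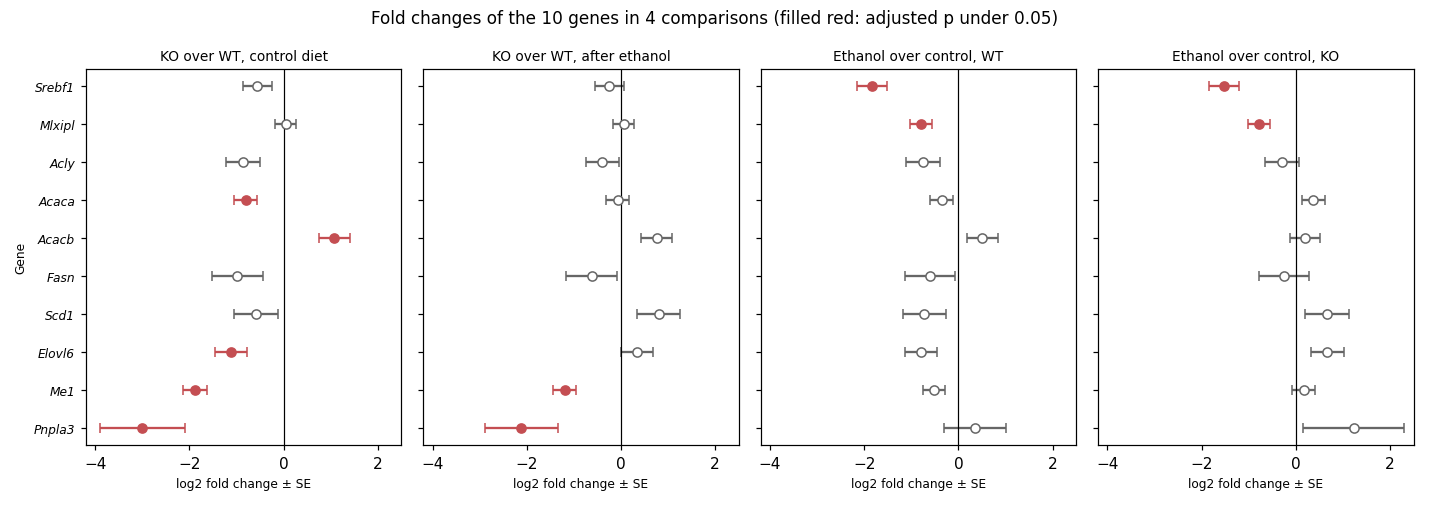
Log2 fold changes of the 10 genes (horizontal axes, with SE) in 4 comparisons from edgeR's quasi-likelihood test. Filled red points are called at an adjusted p under 0.05. Me1 lies at -1.88 and -1.20 between genotypes, and Srebf1 at -1.84 and -1.53 with ethanol.

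No member had an ethanol effect called as different between genotypes. EdgeR called 0 of 10, against 1.81% of all genes (0.523% higher and 1.28% lower), with 3 higher and 0 lower at an unadjusted p under 0.05 (Acaca, Scd1 and Elovl6), while DESeq2 and voom each called 1, Elovl6. The estimates were above 0 for 9 members and below 0 for 1, with a median of 0.57 log2 against 0.00 over all genes. Many members ran high or low together in single libraries, so these 10 estimates are not independent of each other. The share of higher calls over all genes moved here from 29.0% to 48.7% under upper quartile scaling and to 39.9% with DESeq2. Acaca stood at 0.73 ± 0.34 log2 (SE, adjusted p = 0.261), Scd1 at 1.39 ± 0.65 (adjusted p = 0.262) and Me1 at 0.68 ± 0.34 (adjusted p = 0.285).

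Counts of calls shifted with single libraries. Between genotypes on control diet, 1 member was called without WT control library 1 or 4, WT ethanol library 2 or KO control library 3, 2 without WT control library 2, WT ethanol library 3 or KO control library 1, 2 or 4, and 3 without WT control library 3 or KO ethanol library 1 or 3. After ethanol, 1 was called without WT ethanol library 1 or 2 or KO ethanol library 1, 3 or 4, and 4 without KO ethanol library 2. With ethanol in wild type, 1 was called without WT ethanol library 4. In the knockout, 1 was called without KO control library 1, 3 or 4 or KO ethanol library 2 or 3.

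Libraries of one group tended to be high or low for many members at once. WT control library 4 was the highest of its group for all 10 members. WT ethanol library 4, KO control library 2 and KO ethanol library 2 were each the lowest of their group for 8 of 10. The median deviation from the group mean was 0.51 log2 for WT control library 4 and -0.75 log2 for KO ethanol library 2. Fasn varied most among abundant members in wild-type controls, with a coefficient of variation of 67.2% against a median of 15.4% over tested genes, while Mlxipl was at 4.37% there.

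**Figure D4:**
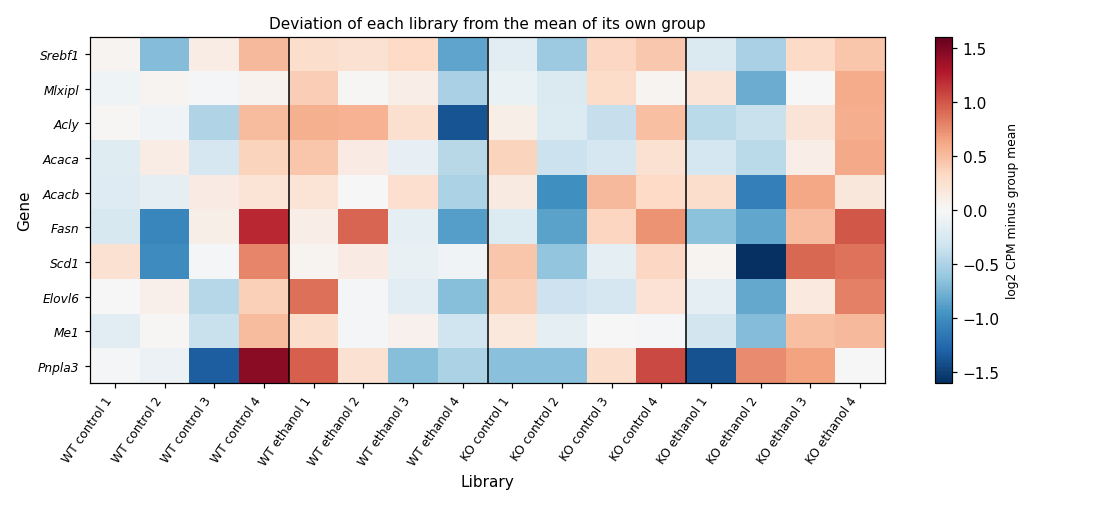
Deviation of each library from the mean log2 CPM of its own group (colour scale, log2) for 10 genes (rows) and 16 libraries (columns, groups parted by lines). WT control 4 is above its group mean for 10 of 10 genes, and KO ethanol 2 is above it for 1 of 10.

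Markers of the cell types in liver differed between the groups. The 12 hepatocyte genes summed to 127100.0 to 145000.0 CPM in wild type on control diet and 137900.0 to 173700.0 CPM with ethanol, and in the knockout to 83500.0 to 86240.0 CPM and 68270.0 to 125800.0 CPM. The mean sum in knockout controls was 62.6% of that in wild-type controls. Most of that drop was in Alb, the gene of serum albumin, which went from 80640 to 34470 CPM, or to 42.7%, and the other 11 genes together were at 91.9%. Of the 12 genes 2 were called lower and 10 were not called on control diet, with a median of -0.07 log2. After ethanol 5 were lower in the knockout, 0 higher and 7 uncalled, with a median of -0.29 log2. With ethanol 5 rose and 0 fell in wild type, and 3 rose and 0 fell in the knockout. Relative to wild-type controls, the 11 genes other than Alb were at 114% in wild type after ethanol and 88.2% in the knockout after ethanol. Besides Alb, means in CPM were lower in knockout than wild-type controls for Cyp2e1 (5929 and 8333), Serpina1a (1386 and 1926) and Apoa1 (11870 and 13920). So were those of Apoa2 (5980 and 6765), Fgb (4418 and 4641) and Cps1 (3151 and 3314). Higher were Ass1 (1069 and 740.5), Tat (990 and 891) and Ttr (6942 and 6378). The transcription factor gene Hnf4a (576.3 and 513.6) and Apob, which encodes a lipoprotein component (7946 and 7274), were higher too. Of the 12 genes 0 were called higher. For 10 cholangiocyte genes the ranges were 73.8 to 102, 59.95 to 71.0, 309.9 to 580.5 and 223 to 936 CPM in the same order. Most of this sum was Spp1, at 51.3 of a mean of 86.96 CPM in wild-type controls and 316.5 of 386.8 CPM in knockout controls. Of the 10 genes 6 rose with genotype on control diet and 9 after ethanol. For 14 monocyte and macrophage genes the ranges were 139 to 208, 76.9 to 113, 175 to 248 and 166 to 474 CPM. Of these 14, 1 rose and 0 fell between genotypes on control diet, and 13 rose and 0 fell after ethanol. With ethanol 1 rose and 9 fell in wild type, and 1 rose and 0 fell in the knockout. Of all genes, 7.4% were called higher between genotypes on control diet and 19.6% after ethanol, and 15.9% lower with ethanol in wild type. KO ethanol library 2 had the lowest hepatocyte sum and the highest sums for cholangiocytes and for monocytes and macrophages. For 10 adipocyte genes, a cell type that also runs this pathway, the ranges were 56.2 to 69.3, 128 to 273, 72.2 to 103 and 82.4 to 146 CPM, with Adipoq and Retn at 0 in wild-type controls, Lep at 0 in the other groups, and Plin1 and Retn at 0 in the knockout after ethanol. The higher adipocyte sum with ethanol in wild type came mainly from Cidec, a lipid-droplet protein gene that went from 4.49 to 119.7 CPM, and the fatty acid carrier gene Fabp4, from 7.43 to 29.97 CPM. Lower with ethanol were the means of Lipe (20.22 and 11.12 CPM), Adrb3 (13.3 and 4.269 CPM) and Lpl (15.86 and 10.52 CPM). At low levels, the means of Adipoq (0 and 0.405 CPM), Plin1 (0.0133 and 0.342 CPM), Retn (0 and 0.266 CPM) and Cfd (1.81 and 2.09 CPM) were higher with ethanol in wild type. Of 6 adipocyte genes tested in wild type with ethanol 2 were called higher and 2 lower, with a median of -0.21 log2. For 8 stellate cell and fibroblast genes the ranges were 148 to 237, 243 to 301, 171 to 210.0 and 219 to 480.0 CPM. With ethanol in wild type 2 of these were called higher and 1 lower (17.6% and 15.9% of all genes), with a median of 0.08 log2. There Dcn went from 116.9 to 193.3 CPM and Col3a1 from 23.74 to 7.69 CPM. For 8 endothelial genes the ranges were 105 to 169.6, 154 to 186, 149.5 to 178 and 164 to 198 CPM. Between genotypes on control diet 1 of these was called higher and 1 lower (7.4% and 4.91% of all genes), with a median of -0.11 log2. There Stab2 went from 18.21 to 66.08 CPM and Vwf from 9.31 to 4.97 CPM. The part of these differences in the members' values was not tested. Tsc1 itself stood at 26.6 ± 2.52, 18.4 ± 1.77, 18.5 ± 3.29 and 14.3 ± 1.93 CPM (SD, n = 4) in the same order of groups. Between genotypes edgeR gave -0.52 ± 0.13 log2 on control diet (SE, adjusted p = 0.0147) and -0.36 ± 0.13 after ethanol (adjusted p = 0.0386). With ethanol Tsc1 was at -0.53 ± 0.13 in wild type (adjusted p = 0.00487) and -0.37 ± 0.13 in the knockout (adjusted p = 0.0686). Knockout controls (16.2 to 23.4 CPM) overlapped wild type after ethanol (15.8 to 19.8 CPM).

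Of the 16 genes of SREBP processing and Srebf1 control, 4 rose and 4 fell with ethanol in wild type, and 1 rose and 5 fell in the knockout. Their median was -0.10 and -0.19 log2, against -0.01 and 0.00 over all genes. Of all genes 17.6% rose and 15.9% fell in wild type, and 7.0% rose and 7.11% fell in the knockout. INSIG proteins hold the SREBP escort SCAP in the endoplasmic reticulum. Insig2 stood at 80.6, 70.5, 98.9 and 108 CPM in wild-type controls and 815, 820.0, 1072 and 1055 CPM after ethanol, and in the knockout at 109, 103, 132 and 154 CPM and then 360, 314, 556 and 376 CPM. Every ethanol library lay above every control library in both genotypes, and all WT ethanol libraries lay above all KO ethanol libraries. It rose by 3.39 ± 0.21 log2 in wild type (SE, adjusted p = 1.16e-07) and 1.69 ± 0.19 in the knockout (adjusted p = 7.61e-05), and the difference between these rises was -1.70 ± 0.27 (adjusted p = 0.00651). Insig1, a target of SREBPs, fell by 2.30 ± 0.36 log2 in wild type (adjusted p = 0.000252) and stood at -1.67 ± 0.35 in the knockout (adjusted p = 0.0067).

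Nr1h3, which encodes the oxysterol receptor LXR alpha that switches on Srebf1, fell with ethanol in wild type (-0.76 ± 0.10 log2, adjusted p = 4.72e-05), and Usf2 fell in the knockout (-0.63 ± 0.10, adjusted p = 0.00099). Scap, the escort protein, was at -0.06 and -0.12 log2 with ethanol in wild type and knockout, Rxra, the partner of LXR, at -0.02 in wild type, and Lpin1 at 0.62 in the knockout, all uncalled. The mean of Lpin1 went from 260.0 to 1135 CPM with ethanol in wild type, and from 228.8 to 350.4 CPM in the knockout. Those means are given after their values were seen. Between genotypes 1 of the 16 rose and 1 fell on control diet, against 7.4% and 4.91% of all genes. The called genes were Prkaa1 (0.47 ± 0.10, adjusted p = 0.00657) and Nr1h3 (-0.46 ± 0.10, adjusted p = 0.00677), with Lpin1 (-0.18) and Rxra (-0.06) uncalled. After ethanol 0 rose by edgeR and 4 fell, against 19.6% and 19.1% of all genes. There was 1 rise at an unadjusted p under 0.05, and DESeq2 and voom called 0 rises. Among the 4 that fell were Insig2 (-1.23 ± 0.19, adjusted p = 0.000157), Rxra (-0.45 ± 0.11, adjusted p = 0.00364) and Mbtps2, a protease that releases SREBPs (-0.47 ± 0.17, adjusted p = 0.0334), while Insig1 (0.52) and Scap (-0.04) were uncalled. The Mbtps2 call was lost under upper quartile scaling (-0.38) and without WT ethanol library 1 (-0.46), 2 (-0.44) or 4 (-0.45) or KO ethanol library 1 (-0.49), 3 (-0.39) or 4 (-0.38). Per kb, Srebf1 stood at 6.09 ± 1.45 times Srebf2, the gene of the cholesterol-directed SREBP, in wild-type controls and 1.96 ± 0.789 times after ethanol, and at 3.56 ± 0.692 and 1.62 ± 0.501 times in the knockout. This ratio was also chosen after its values were seen.

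**Figure D5:**
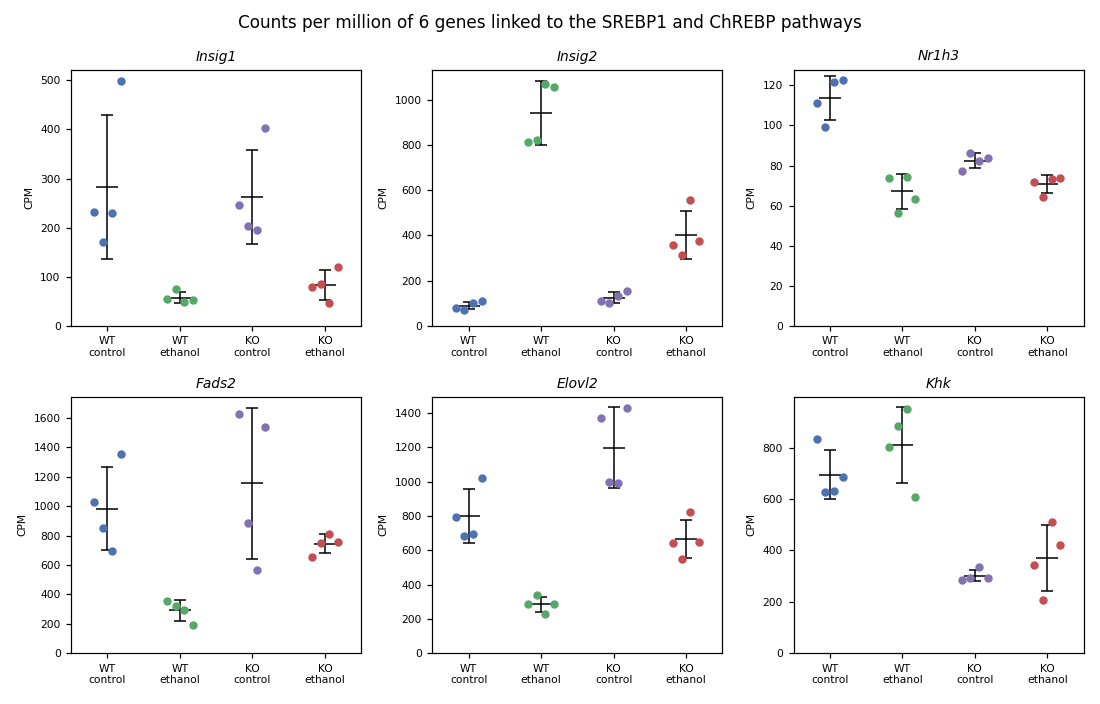
CPM (vertical axes from 0) of Insig1, Insig2, Nr1h3, Fads2, Elovl2 and Khk by group. Points are libraries and bars show the mean and SD of 4. Insig2 lies between 815 and 1072 CPM in wild type after ethanol and between 314 and 556 CPM in the knockout after ethanol.

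Among 16 other genes of fatty acid synthesis, elongation and desaturation, 1 rose and 5 fell with ethanol in wild type, and 2 rose and 3 fell in the knockout, with medians of -0.09 and -0.36 log2. The background over all genes was 17.6% up and 15.9% down in wild type, and 7.0% up and 7.11% down in the knockout. Elovl2 and Fads2 act on polyunsaturated fatty acids. Elovl2 fell in wild type (-1.49 ± 0.18 log2, SE, adjusted p = 1.94e-05) and in the knockout (-0.85 ± 0.18, adjusted p = 0.00536). Fads2 fell by 1.75 ± 0.29 in wild type (adjusted p = 0.000362) and was at -0.64 ± 0.29 in the knockout (adjusted p = 0.148), called without KO control library 3 (-0.87). Hacd2, a dehydratase of the elongation cycle, rose in wild type (0.79 ± 0.11, adjusted p = 4.54e-05) and in the knockout (0.59 ± 0.11, adjusted p = 0.00217). Elovl1 rose in the knockout (0.54 ± 0.14, adjusted p = 0.0151), a call lost without KO control library 1 (0.49) or 2 (0.45). Uncalled were Elovl5 (0.06) and Thrsp (0.84) in wild type and Thrsp (0.15) in the knockout, and Thrsp was called in wild type without KO ethanol library 2 (0.84, adjusted p = 0.0464) and with those groups alone (0.84, adjusted p = 0.0478).

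Between genotypes 1 of these 16 rose and 1 fell on control diet, and 4 rose and 2 fell after ethanol, with medians of -0.02 and -0.06 log2. Shares over all genes were 7.4% up and 4.91% down on control diet, and 19.6% up and 19.1% down after ethanol. After ethanol Elovl2 (1.23 ± 0.18, adjusted p = 9.08e-05), Elovl1 (0.76 ± 0.14, adjusted p = 0.000493) and Fads2 (1.35 ± 0.29, adjusted p = 0.00206) were higher in the knockout, with Fads1 (0.43) and Elovl5 (-0.26) uncalled. Upper quartile scaling (0.51, adjusted p = 0.0444) and those groups alone (0.45, adjusted p = 0.0482) called Fads1. On control diet Elovl2 was higher (0.59 ± 0.18, adjusted p = 0.0391), a call lost without WT control library 1 (0.58), 2 (0.52) or 3 (0.52) or KO control library 1 (0.51) or 4 (0.49). Thrsp, a lipogenic co-factor, was lower (-1.46 ± 0.44, adjusted p = 0.0455), and Fads2 (0.24) and Fads1 (0.24) were uncalled. The Thrsp call was lost with no filter (adjusted p = 0.14), without WT control library 1 (-1.32), 2 (-1.52) or 4 (-1.34), WT ethanol library 1 (-1.46), 2 (-1.45) or 3 (-1.45), KO control library 1 (-1.44), 2 (-1.39) or 3 (-1.31), or KO ethanol library 1 (-1.45). Thrsp was also 1 of the 2 that fell after ethanol, which is named here after its values were seen. It stood at 1004, 1816, 1547 and 847.8 CPM in wild type after ethanol and 246.0, 75.28, 449.1 and 411.4 CPM in the knockout after ethanol, with no overlap. The difference was -2.14 ± 0.45 log2 (SE, adjusted p = 0.00225), or 4.41-fold lower, and it was called under all 23 alternatives.

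Of 8 other tested genes of NADPH supply, 2 rose and 0 fell by edgeR in the knockout on control diet, and 2 rose and 1 fell after ethanol, with medians of -0.09 and -0.12 log2. On control diet 0 falls had an unadjusted p under 0.05 in edgeR, DESeq2 called 0 and voom called 1. Background shares over all genes were 7.4% up and 4.91% down on control diet, and 19.6% up and 19.1% down after ethanol. G6pdx, the first enzyme of the pentose phosphate pathway, rose by 0.92 ± 0.20 log2 on control diet (SE, adjusted p = 0.00594) and 1.59 ± 0.20 after ethanol (adjusted p = 2.53e-05), from means of 4.75 and 4.55 CPM in wild type. Me2, a mitochondrial malic enzyme, rose by 1.14 ± 0.26 (adjusted p = 0.00965) and 1.59 ± 0.27 (adjusted p = 0.000295), from means of 2.17 and 1.93 CPM in wild type. Me2 was counted here as a malic enzyme, and whether it supplies NADPH in these livers was not tested. Me3, another malic enzyme of the list, had 57 counts in all and was too low to test. H6pd, the enzyme of the endoplasmic reticulum, was at 0.04 on control diet and fell after ethanol (-0.50 ± 0.16, adjusted p = 0.021), a call lost by voom (-0.38), with those groups alone (-0.49), and without WT ethanol library 4 (-0.30) or KO ethanol library 2 (-0.45). Idh1 was at -0.25 and -0.24 and uncalled, as was Tkt after ethanol (-0.31), which was called without KO ethanol library 4 (-0.43, adjusted p = 0.0192).

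With ethanol 1 of the 8 rose and 2 fell in each genotype, with medians of -0.04 and 0.16 log2. All genes had 17.6% up and 15.9% down in wild type, and 7.0% up and 7.11% down in the knockout. Idh1 fell in wild type (-0.57 ± 0.13, adjusted p = 0.00327) and in the knockout (-0.56 ± 0.13, adjusted p = 0.0109). Taldo1 fell in wild type (-0.32 ± 0.10, adjusted p = 0.0204), lost without WT control library 1 (-0.29) or 4 (-0.27) or WT ethanol library 1 (-0.26) or 4 (-0.27), with no filter (adjusted p = 0.074) and with those groups alone (adjusted p = 0.0675), and in the knockout (-0.38 ± 0.10, adjusted p = 0.0186), lost without KO control library 4 (-0.36) or KO ethanol library 4 (-0.34) and with no filter (adjusted p = 0.0612). Tkt rose in wild type (0.40 ± 0.13, adjusted p = 0.0287), lost under upper quartile scaling (0.32) and without WT control library 2 (0.37), 3 (0.33) or 4 (0.43) or WT ethanol library 3 (0.33). G6pdx rose in the knockout (0.61 ± 0.19, adjusted p = 0.0414), lost without KO control library 1 (0.68), 2 (0.51), 3 (0.63) or 4 (0.62) or KO ethanol library 2 (0.49) or 3 (0.58). Pgd was at 0.66 in wild type (adjusted p = 0.0561), called without WT ethanol library 4 (0.88) or KO ethanol library 2 (0.66), by DESeq2 (adjusted p = 0.0365) and by voom (adjusted p = 0.0434). H6pd was at 0.32 in wild type and -0.22 in the knockout, and Tkt at 0.28 in the knockout, all uncalled.

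Of 12 ChREBP partners and glucose-responsive genes, 5 rose and 0 fell by edgeR with ethanol in wild type, while Mlxipl fell, and 2 rose and 0 fell in the knockout, with medians of 0.33 and 0.08 log2. In both genotypes 0 falls had an unadjusted p under 0.05 in edgeR, and DESeq2 and voom called 0. The shares over all genes were 17.6% up and 15.9% down in wild type, and 7.0% up and 7.11% down in the knockout. Fgf21, a liver hormone, rose in wild type (3.45 ± 0.71, SE, adjusted p = 0.00214), as did the ChREBP relative Mlxip (0.79 ± 0.18, adjusted p = 0.00337) and Arrdc4 (0.86 ± 0.23, adjusted p = 0.00851). In the knockout Arrdc4 rose too (0.77 ± 0.23, adjusted p = 0.0339), lost with no filter and without KO control library 1 (0.78), 2 (0.75) or 4 (0.66) or KO ethanol library 2 (0.65), 3 (0.71) or 4 (0.82). Uncalled were Khk (0.23 in wild type and 0.29 in the knockout) and Slc2a2 (-0.13 and 0.11), and voom called Khk in the knockout (0.45, adjusted p = 0.0434).

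Between genotypes 0 of these 12 rose by edgeR and 2 fell on control diet, and 0 rose and 4 fell after ethanol, with medians of -0.01 and -0.51 log2. Rises at an unadjusted p under 0.05 numbered 0 and 1 in edgeR, DESeq2 called 0 and 0, and voom called 1 and 1. Called over all genes were 7.4% up and 4.91% down on control diet, and 19.6% up and 19.1% down after ethanol. Khk, which phosphorylates fructose, was lower on control diet (-1.20 ± 0.21 log2, SE, adjusted p = 0.00161) and after ethanol (-1.14 ± 0.21, adjusted p = 0.000675). Gpd1, which supplies glycerol phosphate, fell on control diet (-1.08 ± 0.21, adjusted p = 0.00294) and after ethanol (-0.64 ± 0.21, adjusted p = 0.0225), the latter lost without WT ethanol library 2 (-0.50) or 3 (-0.59) or KO ethanol library 1 (-0.49) or 2 (-0.58) and with those groups alone (-0.62, adjusted p = 0.0738). Mlx fell after ethanol (-0.48 ± 0.15, adjusted p = 0.0194), lost by voom (-0.35), with those groups alone (-0.46, adjusted p = 0.0542) and without WT ethanol library 4 (-0.31) or KO ethanol library 1 (-0.43) or 2 (-0.42). Slc2a2 was at -0.52 and -0.28 on control diet and after ethanol, both uncalled, and with those groups alone it was called on control diet (-0.51, adjusted p = 0.0478).

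Of the relatives of Pnpla3 and its partner, 3 were tested, and 2 rose with ethanol in both genotypes, against 17.6% of all genes in wild type and 7.0% in the knockout. Pnpla2, the main triglyceride lipase, rose by 1.07 ± 0.19 log2 in wild type (SE, adjusted p = 0.000491) and 0.68 ± 0.19 in the knockout (adjusted p = 0.025), and Abhd5, its activator, by 0.64 ± 0.12 (adjusted p = 0.000984) and 0.45 ± 0.12 (adjusted p = 0.0227). In the knockout the Pnpla2 call was lost without KO control library 1 (0.66), 2 (0.59) or 4 (0.63) or KO ethanol library 3 (0.49) and with those groups alone (0.68, adjusted p = 0.0533), and the Abhd5 call without KO control library 1 (0.42) or 2 (0.43) or KO ethanol library 4 (0.40). Pnpla8 was uncalled with ethanol at -0.24 and -0.18, and was called in wild type without KO ethanol library 1 (-0.24, adjusted p = 0.0449), under upper quartile scaling (-0.32, adjusted p = 0.0205) and by voom (-0.26, adjusted p = 0.0402). Between genotypes 0 of the 3 were called by edgeR on either diet, and 0 had an unadjusted p under 0.05. Of all genes 12.3% and 38.7% were called there. Voom called 0. DESeq2, fitted with no filter on low counts, called 0 on control diet and 1 lower gene of the whole list after ethanol. That gene was neither Pnpla2 nor Pnpla8, which no alternative called there. The 3 tested genes include Pnpla2 at 0.12 and -0.27 and Pnpla8 at -0.20 and -0.14 on control diet and after ethanol.

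The genes whose pattern lay closest to a member were ranked by the root mean square difference of log2 CPM, centred on the wild-type control mean, over 16 libraries and among 10679 candidates. For Srebf1 these were Spc24 (0.37), Paqr9 (0.46) and Lgr5 (0.48), for Mlxipl Acsm5 (0.25), Fam98c (0.27) and Ldah (0.28), and for Pnpla3 they included Snhg6 (0.85) and Gpc1 (0.86). The differences were larger for Pnpla3, whose values rest on few counts.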

How the data were processed

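The deposited table holds raw read counts for each gene. The submitters' processing notes name Trimmomatic 0.36 for trimming, HISAT2 2.1.0 for alignment, HTSeq for counting and build GRCm38. Counting strand and annotation release are not stated, so reads of overlapping genes cannot be told apart. Of 55487 rows, 7436 had no symbol (0.227 to 0.479% of counts) and were left out. Library totals ran from 14.75 to 21.757 M. Genes kept by filterByExpr (14346) were fitted with edgeR 4.0.16 in R 4.3.3 (TMM, quasi-likelihood, robust, 1 model of 4 groups, 12 residual degrees of freedom), tested on simulated data. CPM are counts scaled by TMM-adjusted library totals. Alternatives used DESeq2 1.42.0 and voom of limma 3.58.1. The members and lists were chosen with earlier results of these data known. Named were all members and, per list and comparison, the 3 called genes of smallest p and the 2 uncalled genes of highest mean CPM, or fewer; 2 genes that the naming rules select are not reported here. Exon lengths, overlaps and coordinates are from GENCODE M21.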

Additional observations from a re-analysis of the deposited data

Results flagged for a closer look

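Of 40 sets of 4 libraries (10 genes in 4 groups), 1 held a library set apart from the rest. Srebf1 in wild-type ethanol library 4 was the lowest of its group, at 46.0 CPM against 97.6 to 103 CPM, and its gap was 0.907 of the group's range, above Dixon's 95% critical value. Chance sets apart about 1 group in 20. The fall of Srebf1 with ethanol in wild type was called without that library too.

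The rise of Insig2 with ethanol differed between genotypes by a test of that difference, at -1.70 ± 0.27 log2 (SE, adjusted p = 0.00651 in edgeR), being 3.39 log2 in wild type and 1.69 log2 in the knockout. All 4 ethanol libraries lay above all 4 control libraries in each genotype.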

How the results depend on the processing

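Each result was recomputed with RLE scaling, upper quartile scaling, no filter, DESeq2, voom with quality weights, only the groups compared, a replicate block, and without each of the 16 libraries in turn. The interaction, and Pnpla3 between genotypes and with ethanol in the knockout, have no value from only the groups compared. Of 1137 member values, 1039 kept their direction and side of the threshold, 60 lost a call, 14 gained one and 24 changed sign. Of 2088 values of list genes, 1961 were kept, 80 lost a call, 23 gained one and 24 changed sign.

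Members called between genotypes on control diet numbered 5, but 1 with no filter and 8 with voom, and 1 to 6 without single libraries. After ethanol they numbered 2, but 1 with no filter, with voom, with only the groups compared and with the replicate block, and 1 to 4 without single libraries. With ethanol they numbered 1 to 3 without single libraries in wild type, and in the knockout 1 with no filter, 1 with only the groups compared and 1 to 2 without single libraries. For the interaction they numbered 1 with DESeq2, 1 with voom and 0 without single libraries. With only the groups compared 9 of the 10 members had a value between genotypes and with ethanol in the knockout, since Pnpla3 did not pass the filter there. The lower count after ethanol is that missing gene, and in the knockout with ethanol Mlxipl lost its call. With no filter more genes enter the adjustment; the cause of the other shifts was not tested.

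Same-numbered libraries correlated at -0.15 to 0.41 after group means were removed, and 7 of 24 correlated best with their own number, so the numbers were not taken as pairs. Under the replicate block the Pnpla3 differences between genotypes were -2.91 (adjusted p = 0.06) and -2.11 log2 (adjusted p = 0.0543), Thrsp on control diet was at -1.48 (adjusted p = 0.0691), G6pdx with ethanol in the knockout at 0.58 (adjusted p = 0.0511), and Tkt between genotypes after ethanol was called (-0.33, adjusted p = 0.0442). The block changed no other call of a named gene.

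The sign changes were all in uncalled log2 values. Between genotypes on control diet voom gave Mlxipl -0.027, H6pd -0.016 and Lpin1 0.29. After ethanol upper quartile scaling gave Acaca 0.00477 and Scap 0.044. With ethanol in wild type Elovl5 was at -0.012 under upper quartile scaling and -0.10 with voom. For the interaction the block gave Mlxipl -0.0065 and Fasn -0.058, and voom gave Acacb 0.029. Without single libraries, values between genotypes on control diet ran from -0.062 to 0.12 for Mlxipl, -0.074 to 0.13 for H6pd, -0.74 to 0.40 for Lpin1 and -0.046 to 0.22 for Pnpla2. After ethanol they ran from -0.15 to 0.26 for Mlxipl, -0.30 to 0.097 for Acaca and -0.10 to 0.046 for Scap. With ethanol in wild type they ran from -0.12 to 1.16 for Pnpla3, -0.11 to 0.30 for Elovl5, -0.11 to 0.022 for Rxra, -0.14 to 0.0077 for Scap and -0.29 to 0.066 for Slc2a2. In the knockout they ran from -0.039 to 0.45 for Acacb, -0.65 to 0.026 for Fasn, -0.00058 to 0.36 for Me1, -0.16 to 1.17 for Lpin1, -0.039 to 0.20 for Slc2a2 and -0.11 to 0.47 for Thrsp. For the interaction they ran from -0.20 to 0.22 for Mlxipl and -0.18 to 0.77 for Fasn. Depth limits Pnpla3, where 3 counts in a group correspond to 0.0419 to 0.0447 CPM.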
